A study of Lemna gibba with 6 samples.

Results

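Glucose-6-phosphate dehydrogenase (G6PDH) and phosphogluconate dehydrogenase (6PGDH) are the enzymes that reduce NADP in the oxidative pentose phosphate pathway (OPPP). Their transcripts were examined here in whole fronds of the duckweed *Lemna gibba*. The genes were those whose enzyme name in the study's reaction table begins with either name. This rule gave 12 genes, and 9 of them, 6 for G6PDH and 3 for 6PGDH, were among the 16340 genes of the deposited expression table. The remaining 3, LEMGIv51_A5_002306_1, LEMGIv51_A5_002307_1 and LEMGIv51_A5_002308_1, all named for 6PGDH, have no row there and were not analysed here. The plants belonged to a single clone, G3 7742a, and were grown without other organisms, under continuous light, with 5 g/L glucose. Under the INS condition the medium held nitrate at 12.4 mM and ammonium at 1.3 mM. Under the ONS condition both salts were exchanged for potassium salts without nitrogen, and glutamine at 6.85 mM was the nitrogen source. Each condition had 3 biological replicates, each sequenced as a library of polyadenylated RNA. Fronds and their roots were harvested together.

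G6PDH oxidizes glucose 6-phosphate to a lactone and gives the first NADPH of the pathway. A lactonase opens the ring, and 6PGDH then decarboxylates 6-phosphogluconate to ribulose 5-phosphate, releasing CO2 and a further NADPH. Plants run these steps in the cytosol and in the plastid. In plastids that are not lit or do not photosynthesize, such as those of roots, the OPPP is known as a source of reductant for nitrite reductase and glutamate synthase, the enzymes that carry nitrogen from nitrate into amino acids. The comparison of INS with ONS asks which of the genes for these steps differ between plants that reduce nitrate and plants that are given reduced nitrogen.

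The deposited table gives, per gene, the mean normalized count of each condition, which is a read count divided by the size factor of its library and averaged over 3 libraries. Such a mean is a weighted sum of whole reads, and most means under 1000, but not all, could be separated into the reads of each library. Both conditions were recovered for 11818 genes. The libraries are named here by their depth within a condition, since they could not be matched to replicate numbers. Estimated depths ranged from 8324790 reads, in an INS library, to 35807300 reads, in an ONS library. Of the 9 genes, 5 could be tested with limma on log2(normalized reads + 1), a scale that understates the change of genes with few reads. For the other 4, at least 1 mean exceeded 1000 and was not separated, so they have no replicate error and no test.

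Differences between INS and ONS were concentrated in 2 of the 9 genes, 1 for each enzyme. The mean of the plastidic 6PGDH gene LEMGIv51_A5_005055_1 was 32.1-fold lower under ONS, and that of the plastidic G6PDH gene LEMGIv51_A5_015264_1 was 3.33-fold lower. The G6PDH gene LEMGIv51_A5_008439_1 was 2.09-fold higher by its means, and the other 6 genes lay within 2-fold. By the condition means, 1 gene was therefore more than 4-fold lower, against 2.30% of 15248 genes with a mean of at least 10. Counted at more than 2-fold, 2 genes were lower, against 7.38% of these genes, and 1 was higher, against 3.23%. The median log2 ratio was -0.07 over the 9 genes and 0.04 over the 15248 genes. In whole fronds, fewer cells of a type and less RNA per cell cannot be told apart.

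None of the 5 genes that limma could test passed the thresholds of the study's methods, which ask for a change of more than 4-fold and an adjusted p no higher than 0.05. Of all 10727 genes tested, 2.59% passed. Without the fold threshold the count was again 0, against 6.06% of all genes, and limma with voom weights also called 0. At an unadjusted p under 0.05 there was 1, LEMGIv51_A5_008439_1, against 18.5% of all genes tested. The INS and ONS libraries overlapped for every one of the 5 genes, while they did not overlap for 25.5% of all genes tested. The genes beyond the reach of this test include both with the large differences in mean.

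**Figure D1:**
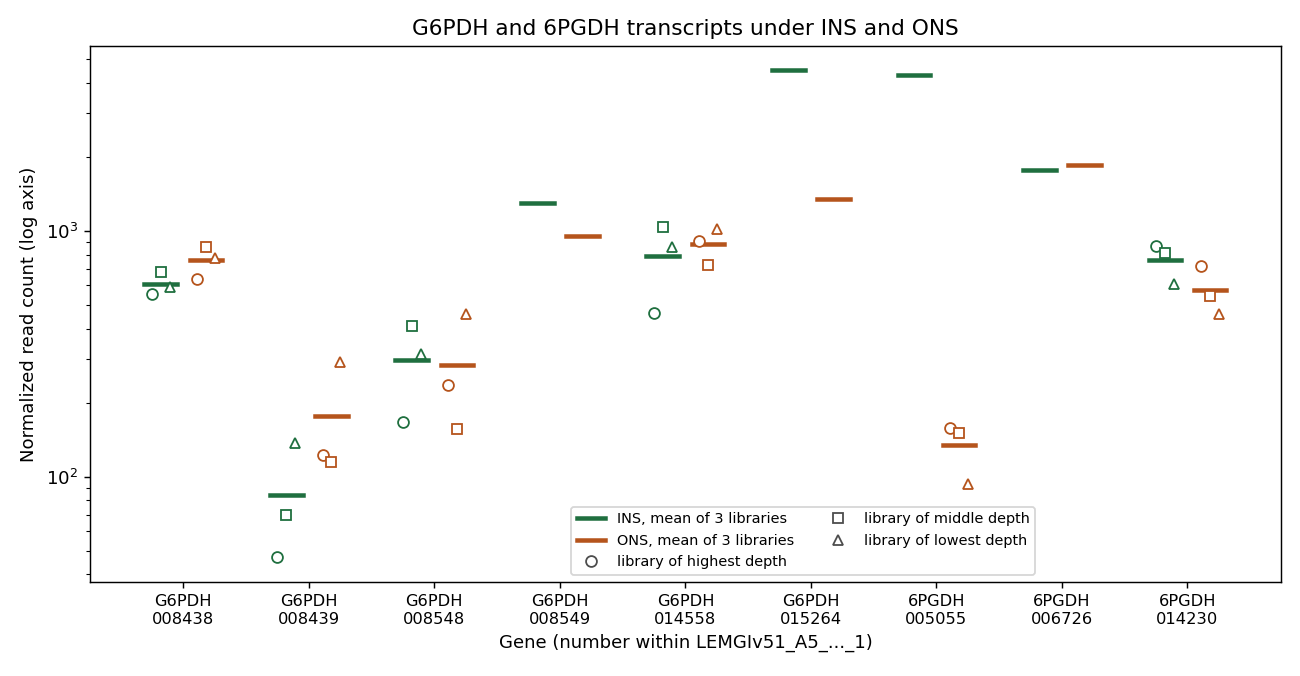
Normalized read count on a log axis for the 9 genes, labelled by the number within their ID, with the INS condition in green and the ONS condition in brown. Horizontal bars are the authors' means of 3 libraries, open symbols are libraries whose reads were recovered, with the shape giving the order of depth. For LEMGIv51_A5_005055_1 the 3 ONS libraries lie between 93.4 and 158 under an INS mean of 4299, whereas the symbols of the 5 genes with reads under both conditions overlap.

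The 6PGDH genes comprise 2 assigned to the plastid and 1 assigned to the cytosol, and the plastidic genes had very different ratios of ONS to INS. Both plastidic genes, LEMGIv51_A5_005055_1 and LEMGIv51_A5_006726_1, are named after the same closest protein, the chloroplastic 6PGDH 1 of Arabidopsis. The authors' mean for LEMGIv51_A5_005055_1 was 4299 under INS and 134 under ONS, a log2 ratio of -5.002. Its ONS reads were recovered as 310, 132 and 74 from the library of highest to the library of lowest depth, which are 158, 151 and 93.4 normalized reads with an SD of 35.4 (n = 3). The ONS libraries were thus all far under the INS mean, and the shallowest was the lowest of them. The INS mean can be composed of whole reads in 239 ways, which were not weighed against each other. Some place every INS library above the highest ONS library and others do not. At most 1 of them is the real one, so how many do so holds no evidence on the replicates. The means alone do not settle whether the groups overlap.

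Among the 3627 genes with a mean of at least 1000, LEMGIv51_A5_005055_1 had the third-lowest ratio of ONS to INS. More than 4-fold lower means were found for 39 of these genes and more than 2-fold lower means for 179. The 2 genes with the nearest log2 ratio, out of 3313 other genes whose mean reached 0.5 of its own, were LEMGIv51_A5_009812_1 and LEMGIv51_A5_016827_1. LEMGIv51_A5_009812_1 is nitrate reductase, which forms nitrite from nitrate, with means of 18879 under INS and 609.8 under ONS and a log2 ratio of -4.95. LEMGIv51_A5_016827_1 has no enzyme name in the lists used here. Its means were 3397 and 85.7, and its log2 ratio was -5.31. Likeness was measured on the 2 condition means alone.

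**Figure D2:**
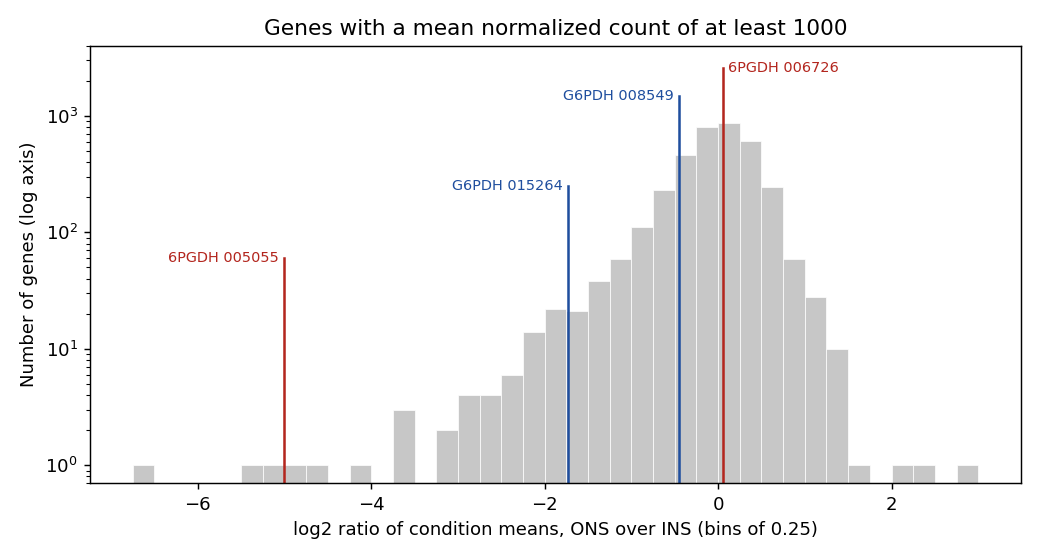
Histogram of the log2 ratio of condition means, ONS over INS, for the 3627 genes whose mean normalized count reached 1000, with the number of genes on a log axis. Vertical lines mark the 4 genes for G6PDH (blue) and 6PGDH (red) in this class. LEMGIv51_A5_005055_1 lies at -5.002, in the sparse lower tail, LEMGIv51_A5_015264_1 at -1.74, and the other 2 genes within the main peak.

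The second plastidic gene, LEMGIv51_A5_006726_1, had means of 1774 under INS and 1848 under ONS, a log2 ratio of 0.06. Neither mean could be separated into libraries, so this small difference has no error. Relative to LEMGIv51_A5_006726_1, the level of LEMGIv51_A5_005055_1 was lower under ONS by -5.06 on the log2 scale. Transcript length cancels in this change of ratio between the genes. It is a ratio of means over libraries of unequal depth and was not tested.

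The cytosolic 6PGDH gene, LEMGIv51_A5_014230_1, is named after 6PGDH 3 of Arabidopsis. Its normalized reads, from highest to lowest depth, were 868, 813 and 605 under INS and 722, 542 and 460 under ONS, from between 270 and 1417 reads per library. The deepest ONS library lay within the INS range, and the other 2 lay under it. The mean was 762 ± 139 (SD, n = 3) under INS and 575 ± 134 (SD, n = 3) under ONS. The limma log2 fold change was -0.41 ± 0.22 (SE), with an adjusted p of 0.347 and a 95% interval from -0.91 to 0.08, so a difference was not detectable. The interval leaves out a 2-fold difference in either direction. Compared with this gene, LEMGIv51_A5_005055_1 was lower under ONS by a log2 value of -4.60, and LEMGIv51_A5_006726_1 was higher by 0.46, both by the condition means and without a test.

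For G6PDH, the table names 1 gene after a cytosolic Arabidopsis protein and 5 after chloroplastic proteins. LEMGIv51_A5_015264_1, named after G6PDH 2 of the Arabidopsis chloroplast, had means of 4494 under INS and 1349.85 under ONS, a log2 ratio of -1.74. By this ratio it was number 63 from the bottom among the 3627 genes with a mean of at least 1000. Its reads per library were not recovered. Its means can be given by 8778 pairs of whole-read combinations, which were not weighed against each other. Some of these place every INS library above every ONS library and others do not. At most 1 pair is the real one, so how many do so holds no evidence on the replicates. Here too, the means alone do not settle whether the groups overlap. For scale, limma's SE among 3561 genes with means from 300 to 1000 had a median of 0.23 and a 95th percentile of 0.36. In the same class, all 49 genes with a ratio as low as that of LEMGIv51_A5_015264_1 had an adjusted p of at most 0.05 with limma. They were picked by their ratio in the same reads that gave the p-values, so this count was nearly fixed beforehand. These are also other genes, and they are no test of LEMGIv51_A5_015264_1.

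The chloroplastic genes LEMGIv51_A5_008438_1 and LEMGIv51_A5_008439_1 carry consecutive numbers and share the closest protein, a G6PDH of *Solanum*. They may share reads or be pieces of a single gene, so their separate values are uncertain. The normalized reads of LEMGIv51_A5_008439_1, from highest to lowest depth, were 46.9, 69.8 and 137 under INS and 123, 114 and 293 under ONS. The shallowest library was the highest in each condition, and the shallowest INS library exceeded 2 of the ONS libraries. With a mean of 84.4 ± 46.6 (SD, n = 3) under INS and 177 ± 101 (SD, n = 3) under ONS, the limma log2 fold change was 1.06 ± 0.45 (SE), with a 95% interval from 0.06 to 2.06. Its unadjusted p with limma was 0.0403 and its adjusted p was 0.243, so the difference fails the correction. Leaving out the shallowest INS library gave a log2 fold change of 1.47 with a limma adjusted p of 0.0872, the lowest over its alternatives, which reached 0.580.

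The normalized reads of LEMGIv51_A5_008438_1 were 552, 678 and 589 under INS and 634, 859 and 778 under ONS. These libraries lay close to each other within a condition, and the deepest ONS library lay within the INS range. The mean was 606 ± 64.5 (SD, n = 3) under INS and 757 ± 114 (SD, n = 3) under ONS, and the limma log2 fold change was 0.31 ± 0.19 (SE) with an adjusted p of 0.3999. The 95% interval ran from -0.10 to 0.73. Its ONS reads were chosen from 2 possible solutions by the usual ratios between libraries.

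Within a library, LEMGIv51_A5_008438_1 had 11.8, 9.71 and 4.31 reads per read of LEMGIv51_A5_008439_1 under INS and 5.17, 7.51 and 2.66 under ONS, from highest to lowest depth. The ratio was lowest in the shallowest library of each condition, and the conditions overlapped. The mean log2 ratio was 2.96 ± 0.77 (SD, n = 3) under INS and 2.22 ± 0.76 (SD, n = 3) under ONS. The difference of -0.74 had p = 0.3 in an exact two-sided permutation test, in which 3 against 3 libraries cannot go below 0.1. Unequal change of these neighbouring genes was not detectable.

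LEMGIv51_A5_008548_1 and LEMGIv51_A5_008549_1 are also consecutive and are both named after G6PDH 4 of the chloroplast, a protein known in Arabidopsis to lack the catalytic activity. The reaction table places the former in the plastid and the latter in the cytosol. The normalized reads of LEMGIv51_A5_008548_1 were 167, 412 and 316 under INS and 236, 157 and 457 under ONS. Its libraries spread widely within both conditions, and its mean was 298 ± 123 (SD, n = 3) under INS and 283 ± 156 (SD, n = 3) under ONS. The limma log2 fold change was -0.12 ± 0.42 (SE) with an adjusted p of 0.911. The sign turned to 0.16 without the INS library of middle depth and to 0.24 without the ONS library of middle depth, so no direction can be given. The interval, from -1.04 to 0.80, still holds a 2-fold lower level. For LEMGIv51_A5_008549_1 only the means were at hand, 1301 under INS and 952 under ONS, a log2 ratio of -0.45. The ratio of LEMGIv51_A5_008548_1 to LEMGIv51_A5_008549_1 was 0.38 higher under ONS on the log2 scale, by the means and without a test.

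The cytosolic LEMGIv51_A5_014558_1, named after the cytoplasmic isoform 2 of Arabidopsis, had normalized reads of 464, 1033 and 860 under INS and 908, 729 and 1015 under ONS. The deepest INS library was the lowest of the 6, and the ONS libraries fell within the range of INS. The mean was 786 ± 292 (SD, n = 3) under INS and 884 ± 145 (SD, n = 3) under ONS. The limma log2 fold change was 0.23 ± 0.27 (SE) with an adjusted p of 0.682 and a 95% interval from -0.37 to 0.84. It turned to -0.11 without the deepest INS library, and its ONS reads were chosen from 2 possible solutions.

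LEMGIv51_A5_015264_1 had the lowest log2 ratio of the G6PDH genes. Its ratio to each of the others was therefore lower under ONS in all 5 pairs. By the condition means, these log2 changes ran from -1.28 against LEMGIv51_A5_008549_1 to -2.80 against LEMGIv51_A5_008439_1, and none could be tested. The chloroplastic G6PDH genes other than LEMGIv51_A5_015264_1 had log2 ratios between -0.45 and 1.07, and the cytosolic LEMGIv51_A5_014558_1 had one of 0.17.

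The deepest INS library was the lowest of the INS libraries for all 4 tested G6PDH genes, and it was the highest for the 6PGDH gene LEMGIv51_A5_014230_1. Across all 10727 genes tested it was the lowest for 42.9% and the highest for 37.9%. It also stood farthest from its group, with a median absolute log2 difference of 0.46 from the other 2 libraries, against 0.27 to 0.36 for the remaining 5 libraries. Under ONS the library of middle depth was the lowest for 3 of the 4 G6PDH genes and for 32.5% of all genes.

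Summed over genes, reads for both steps were fewer under ONS. The 6 G6PDH genes had a summed mean of 7569.75 under INS and 4403 under ONS, 0.582 times as much, and the 3 6PGDH genes had 6835 and 2556, 0.374 times as much. Without LEMGIv51_A5_015264_1 the G6PDH sum was 3075 under INS and 3053 under ONS, and without LEMGIv51_A5_005055_1 the 6PGDH sum was 2536 and 2422. LEMGIv51_A5_005055_1 took 62.9% of the 6PGDH reads under INS and 5.25% under ONS, and LEMGIv51_A5_006726_1 took 26.0% and 72.3%. LEMGIv51_A5_015264_1 took 59.4% of the G6PDH reads under INS and 30.7% under ONS. The G6PDH sums include LEMGIv51_A5_008548_1 and LEMGIv51_A5_008549_1, named after the Arabidopsis protein that lacks the activity. LEMGIv51_A5_008548_1 took 3.94% of the G6PDH reads under INS and 6.44% under ONS, and LEMGIv51_A5_008549_1 took 17.2% and 21.6%. These are shares of reads and not of transcript molecules, because longer transcripts give more reads and lengths were not used here. The sums rest on condition means and have no error.

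**Figure D3:**
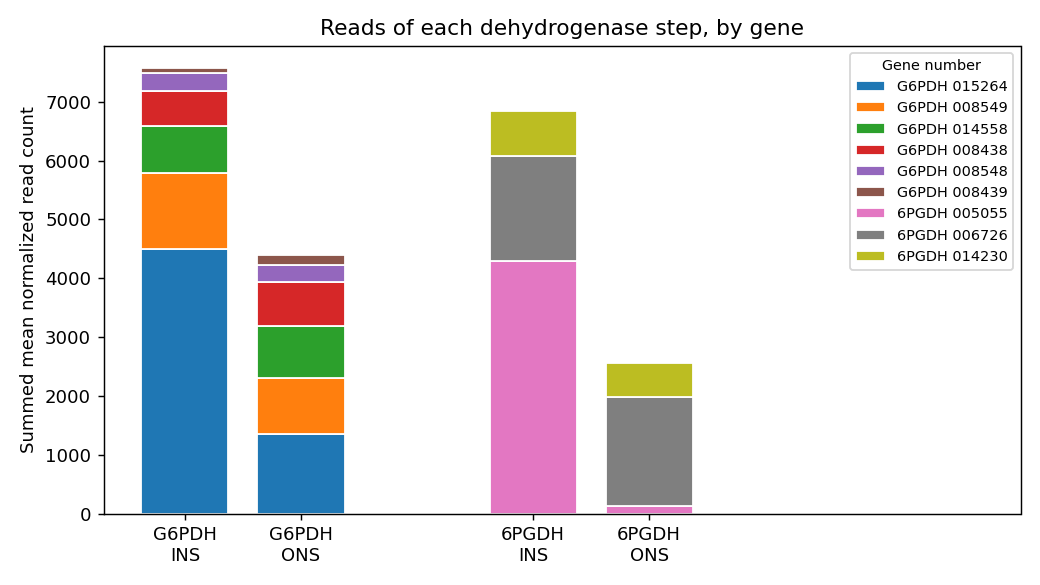
Summed mean normalized read count of the 6 G6PDH genes and the 3 6PGDH genes under INS and ONS, stacked by gene, with the authors' means as segments and no error bars. The bars reach 7569.75 under INS and 4403 under ONS for G6PDH, and 6835 and 2556 for 6PGDH. The segments of LEMGIv51_A5_015264_1 and LEMGIv51_A5_005055_1 are smaller under ONS, whereas the remaining segments together lie at 3075 against 3053 and at 2536 against 2422.

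Of the other genes around these steps, 2 passed the test, both in the non-oxidative branch. The lactonase between both dehydrogenases has 2 genes, and its tested gene did not pass. Its gene with the larger ratio, LEMGIv51_A5_014746_1, had a mean of 1399.95 under INS against 1700.51 under ONS. The non-oxidative branch returns pentose phosphates to hexose and triose phosphates. Of its 6 tested genes, 2 were called lower under ONS and 0 higher, against 248 and 30 of all 10727 genes tested. The median log2 ratio over the 11 genes of the branch was -0.08. Both genes called lower encode transketolase, carry consecutive numbers and may share reads, so they may not be 2 independent results. They are minor by reads, since the remaining transketolase gene, LEMGIv51_A5_006445_1, named here after its values were seen, took 99.1% of the transketolase reads under INS. Its means were 28017 under INS and 30433 under ONS, and it could not be tested. LEMGIv51_A5_017459_1 had 185, 217 and 289 normalized reads under INS and 38.2, 29.8 and 42.9 under ONS, with no overlap. Its limma log2 fold change was -2.60 ± 0.30 (SE), with an adjusted p of 7.3e-04. LEMGIv51_A5_017458_1 had 13.7, 39.0 and 53.8 normalized reads under INS and 6.11, 4.58 and 7.58 under ONS, so that every ONS library was lower. Its limma log2 fold change was -2.19 ± 0.57 (SE) with an adjusted p of 0.0469. Leaving out any library except the deepest INS library ended this call, with limma adjusted p from 0.0786 to 0.188.

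Glucose 6-phosphate, the substrate of G6PDH, comes from hexokinase, from glucose-6-phosphate isomerase and, in plastids, through a translocator. None of the 7 tested genes of this list of 10 passed. At an unadjusted p under 0.05 with limma there was 1, against 18.5% of all genes tested. The gene with the largest difference was a translocator, LEMGIv51_A5_001996_1, with means of 4616 under INS and 1285 under ONS. Its log2 ratio of -1.84 stands beside the -1.74 of the G6PDH gene LEMGIv51_A5_015264_1, and neither has an error. The other translocator gene, LEMGIv51_A5_012330_1, named here after its values were seen, had a limma log2 fold change of 0.20 ± 0.29 (SE) with an adjusted p of 0.744.

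The other NADPH-forming dehydrogenases, namely NADP isocitrate dehydrogenase, NADP malic enzyme and the non-phosphorylating glyceraldehyde-3-phosphate dehydrogenase, are 6 genes. Of these, 3 were tested, 0 passed and 2 had an unadjusted p under 0.05 with limma, against 18.5% of all genes tested. These 2 went in opposite directions. The isocitrate dehydrogenase gene LEMGIv51_A5_009323_1, named here after its values were seen, was lower under ONS, with a limma log2 fold change of -0.62 ± 0.23 (SE). The malic enzyme gene LEMGIv51_A5_001160_1 was higher. The median log2 ratio of the 6 genes was 0.54, against 0.04 over all 15248 genes with a mean of at least 10. Of the 6, 5 had a higher mean under ONS. The largest ratio was that of the malic enzyme gene LEMGIv51_A5_001160_1, with 179, 201 and 202 normalized reads under INS and 344, 308 and 384 under ONS, without overlap. Its limma log2 fold change was 0.82 ± 0.23 (SE) and its adjusted p was 0.0605. In the list of nitrate assimilation and glutamate synthase, no gene could be tested. Nitrite reductase, LEMGIv51_A5_006998_1, had a log2 ratio of -4.63, NADH glutamate synthase -0.71 and ferredoxin glutamate synthase 0.29.

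**Figure D4:**
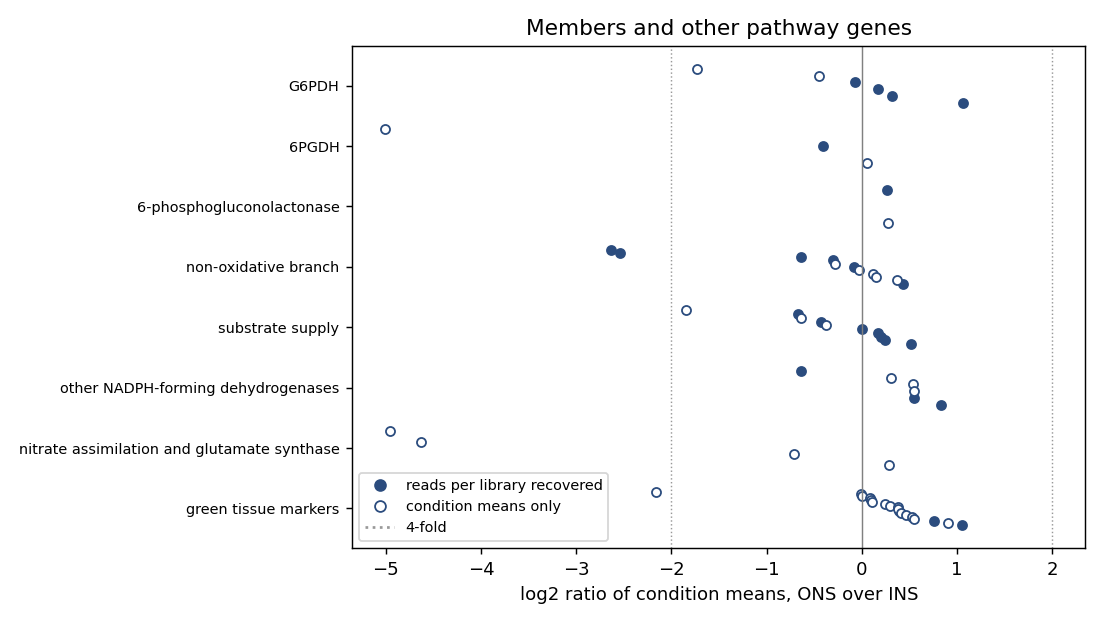
The log2 ratio of condition means, ONS over INS, for each gene with a mean of at least 10, by list, where filled symbols are genes with recovered reads and open symbols have condition means only. Dotted lines mark 4-fold. Beyond the lower line lie LEMGIv51_A5_005055_1 at -5.002, nitrate reductase at -4.95 and nitrite reductase at -4.63. The transketolase genes LEMGIv51_A5_017458_1 and LEMGIv51_A5_017459_1 and 1 green tissue marker also lie beyond it, but the transketolase gene LEMGIv51_A5_006445_1 does not.

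Genes of green tissue, namely those for Rubisco, phosphoribulokinase and the phosphorylating NADP glyceraldehyde-3-phosphate dehydrogenase, were read beside these results. Of 18 such genes with a mean of at least 10, 16 had a higher mean under ONS. Many of the Rubisco genes carry consecutive numbers and may share reads, so the 18 may not be independent. Their median log2 ratio was 0.38, against 0.04 over all 15248 genes with such a mean. Of 3 tested genes 0 passed, and 1 had an unadjusted p under 0.05 by limma, against 18.5% of all genes tested. The summed mean over the listed genes with a row was 365889 under INS and 461721 under ONS, 1.26 times as much. The exception with the largest difference, the Rubisco gene LEMGIv51_A5_020507_1, had means of 2735 and 613. Of the 20 genes listed, 19 had a row, and none of these was at 0. In the study's growth measurements, roots made up a larger fraction of dry weight under ONS than under INS. The sources name no root gene, so the share of root RNA in these libraries could not be followed. The part of tissue composition in the values of LEMGIv51_A5_005055_1 and LEMGIv51_A5_015264_1 was not tested.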

How the data were processed

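PolyA-selected RNA of fronds was sequenced from 3 INS and 3 ONS cultures, grouped by sample title. The authors aligned read pairs by Bowtie against transcripts predicted from the draft genome v0.5.1 and divided the counts by DESeq size factors (tool versions are not given in the sources used here). The deposited signal values are means of these normalized counts, over all libraries and per condition. The table also holds the authors' fold changes, their log2 values, p-values, adjusted p-values and calls, which were not used.

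Whole reads per library were recovered from means under 1000. Where several solutions existed, the one with a weight of at least 0.99, given the usual ratios between libraries, was taken, a step added after the data had been seen. A linear model with a mean-variance trend was fitted in limma 3.58.1 (R 4.3.3) to log2(normalized reads + 1). It covered the 10727 genes with reads recovered under both conditions and a mean of at least 10. The p-values were adjusted over these genes by the Benjamini-Hochberg procedure. The recovery of reads and the fit were tested on simulated data. Python 3.11.15, numpy 2.4.6, pandas 2.3.3, scipy 1.17.1, numba 0.67.0 and matplotlib 3.10.9 were also used.

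Genes and lists were chosen with earlier results of these data known. Named were all genes of both enzymes, called genes of the other lists, the gene of each list with the largest ratio and a mean of at least 50, and the 2 genes most like LEMGIv51_A5_005055_1. Alternatives covered pseudocounts, filters, scalings, limma settings, thresholds and each library left out.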

Additional observations from a re-analysis of the deposited data

How the results depend on the processing

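No paired analysis was possible because the deposited columns carry no replicate numbers. Of the 5 G6PDH and 6PGDH genes that could be tested, 0 were called under every alternative, including each fit without 1 library. The count was also 0 in the fit on means with a single solution only, which was added after the data had been seen. That fit leaves out LEMGIv51_A5_014558_1 and LEMGIv51_A5_008438_1. LEMGIv51_A5_005055_1 and LEMGIv51_A5_015264_1, with the large differences in mean, could not be called in any of these fits. The log2 fold change of LEMGIv51_A5_014558_1 ranged from -0.11, without the deepest INS library, to 0.47 with a library left out, and that of LEMGIv51_A5_008548_1 from -0.53 to 0.24, with 0.16 and 0.24 without the INS and the ONS library of middle depth. The ratio of LEMGIv51_A5_008438_1 to LEMGIv51_A5_008439_1 ranged from -1.18 to -0.33 (ONS minus INS, log2) with a library left out. Among the other pathway genes 1 to 2 were called with a library left out, against 2. Over all genes, 248 were called lower and 30 higher. With a library left out these counts were 198 to 264 and 20 to 39. They were 152 and 19 with a mean of at least 50, where fewer genes were tested, 546 and 104 without a fold threshold, and 510 and 95 at more than 2-fold. Genes called higher numbered 18 with a pseudocount of 5 and 19 at an adjusted p of at most 0.01. Of the 9 G6PDH and 6PGDH genes, 1 was more than 4-fold lower by condition means under both alternatives for the means. Replicate error is missing for means over 1000, which concerns 4 of the 9 genes.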
